A study of Mus musculus with 28 samples.

Results

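The esophagus and the intestine are the anterior and the posterior parts of the gut tube compared here, as endoderm of mouse embryos at E11.5, a stage counted in days of embryonic development. The comparison takes the 3 arrays titled as esophagus endoderm and the 3 titled as intestinal endoderm, which are 6 of the 28 arrays of the series. By the design text, each sample held endoderm from dissected organ domains of 10 to 12 pooled embryos, isolated by flow cytometry. That text gives 3 biological replicates per organ, while the sample titles number 4 for the pancreas. Each sample was read on a bead array of its own (Illumina MouseRef-8 v2), after its total RNA had been amplified and labelled. No genotype, strain, treatment or sex is given for these samples, and neither the surface marker of the sort nor the stretch of intestine dissected is given in the sources used here. Levels in the other organs at E11.5 (stomach, lung, liver and pancreas endoderm) and in definitive endoderm at E8.25 are given as a description where they place a gene, with no test.

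At this stage both organs are simple tubes of epithelium. The esophagus later forms a stratified squamous epithelium that renews from basal cells, in which the transcription factors Sox2 and p63 (gene Trp63) are needed, whereas the intestine forms a columnar absorptive epithelium whose identity depends on the homeobox factor Cdx2. Regional transcription factors and Hox genes are known to be set along the gut tube well before the mature cell types appear.

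A level below is the log2 of an intensity after background correction and quantile normalization. A difference is the esophagus mean minus the intestine mean on this log2 scale, so that a negative difference is a higher level in the intestine, and its error is the standard error (SE) of the limma fit. A probe was taken as above background on an array when it exceeded the 99th percentile of probes for sensory receptors there. A gene was called when its adjusted p was under 0.05 and its levels differed at least 2-fold. Where the lower group was above background on none of its arrays, the size is written as "at least" a fold, set against the background limit of those arrays. The number of arrays limits the precision. The SE and p-value of a gene draw on the spread within all 9 groups of the 28 arrays. They do not measure the spread between the esophagus and intestine pools alone.

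Arrays of each organ resembled each other more than the other organ's. Pearson's r across the genes tested, which are not independent replicates, was 0.988 to 0.995 within the esophagus, 0.967 to 0.993 within the intestine and 0.905 to 0.918 between them. The intestine arrays were the more variable, with a median SD per gene of 0.179 against 0.104 for the esophagus. Intestine 3 stood apart in the deposited values, with 7931 of them below 0, while the other 5 arrays had at most 8. It also had 9664 probes above background, against 11994 and 10843 on the other intestine arrays and 12398 to 12588 on the esophagus arrays. Counts of calls without it are therefore given beside the main counts. Among the other organs, pancreas 3 had 11861 values below 0 and 7083 probes above background, and liver 3 had 1631 values below 0. Both entered the normalization, the SE of each gene and the means of their organs. When the 6 arrays alone were normalized and fitted, 800 genes were called, 770 of them as in the main analysis.

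Of 9651 genes tested, 783 were called (8.11%), 387 higher in the esophagus (4.01%) and 396 higher in the intestine (4.10%). Without the 4 globin genes, which are set apart below, 779 were called and 392 of them were higher in the intestine. Without intestine 3 the number called was 870, with 428 higher in the esophagus and 442 higher in the intestine. In the esophagus direction 85 genes differed at least 4-fold and 30 at least 8-fold, and in the intestine direction these counts were 105 and 43, with genes at background in the lower organ counted by their "at least" fold. For 384 of the 387 and 395 of the 396, the values of the organs did not overlap, as they also did not for 4344 of all 9651 genes tested (45.0%). The shares called in each direction, 4.01% and 4.10%, are the background for the counts of list members given below. A gene was tested if above background on every array of some group, which can be only the organ where it is high. The counts and medians of the lists therefore depend in part on this filter. The lower organ was above background on none of its arrays for 84 of the genes higher in the esophagus and for 104 of those higher in the intestine.

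**Figure D1:**
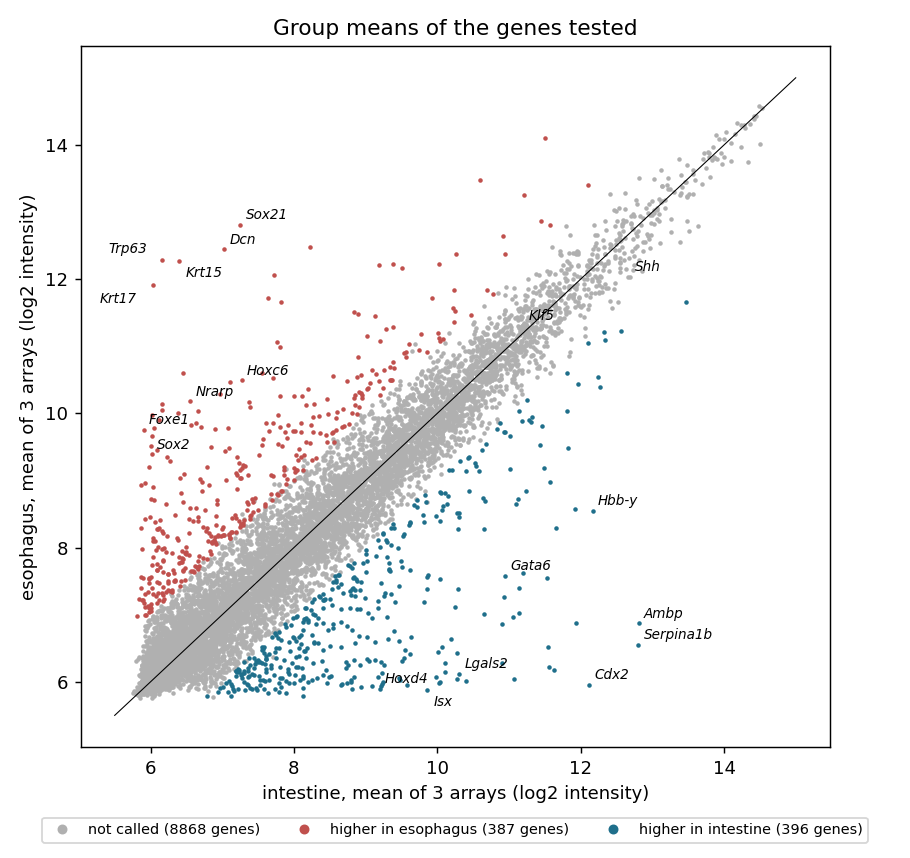
Mean level of each gene tested, intestine (x axis) against esophagus (y axis), both as log2 intensity over 3 arrays; each point is a gene, colored by its call, and the line marks equal levels. The 387 genes higher in the esophagus lie above the line and the 396 higher in the intestine lie below it, with Trp63 and Cdx2 near the corners and Shh and Klf5 close to the line.

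Trp63 had the largest difference of the genes higher in the esophagus. It encodes p63, the factor that maintains basal cells of stratified epithelia. Its level was 12.47, 12.25 and 12.14 in esophagus 1 to 3 and 6.24, 6.03 and 6.22 in intestine 1 to 3, where it was above background on no array. The groups were far apart, and the difference of 6.12 ± 0.29 (adjusted p = 4.16e-14) came to at least 54.3-fold. The basal keratins Krt15 and Krt17 followed. Krt15 was 12.75, 12.64 and 11.42 in the esophagus and 6.34, 6.47 and 6.38 in the intestine, and Krt17 was 12.15, 12.44 and 11.13 against 6.18, 6.03 and 5.90. Both were lowest on esophagus 3 among the esophagus arrays. By their means over the 3 arrays, they were at least 53.7-fold and 41.8-fold above the background limit of the intestine. The transcription factor gene Sox21 was 12.80, 12.87 and 12.76 in the esophagus and 7.52, 7.14 and 7.10 in the intestine (difference 5.55 ± 0.46, adjusted p = 1.18e-09), with a stomach mean of 12.18, close to the esophagus.

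The next genes by size encode secreted, membrane and metabolic proteins. Dcn, which encodes the matrix proteoglycan decorin and is best known from mesenchyme, was 12.25, 12.43 and 12.66 in the esophagus and 6.74, 7.32 and 7.03 in the intestine (difference 5.42 ± 0.29, adjusted p = 4.5e-13). The summed intensity of the 23 mesenchyme markers with a probe moved with it, from 10318 to 12195 in the esophagus and from 3275 to 4198 in the intestine. Without Dcn and the smooth muscle actin gene Acta2, the sums over the other 21 overlapped. They were 2824 to 3658 in the esophagus and 2793 to 3092 in the intestine. The numbers of these 21 above background did not overlap. They were 14, 12 and 13 on esophagus 1 to 3 and 7, 9 and 4 on intestine 1 to 3. The intestine arrays also had fewer probes above background in all, as given above. Ptn, the growth factor pleiotrophin, was 12.20, 12.01 and 11.96 against 7.47, 8.06 and 7.65 (difference 4.33 ± 0.28). Ifitm3, an interferon-induced membrane protein gene, was 12.42, 12.58 and 12.44 against 8.0, 8.15 and 8.53 (difference 4.26 ± 0.27). No array of either organ came near the other for these genes. In bulk samples such as these, fewer cells of a type and less RNA per cell cannot be told apart.

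Of the 12 genes with the largest differences in this direction that were called in all 6 fits leaving out 1 array, 5 remain. The adenylate cyclase gene Adcy2 differed by 4.15 ± 0.17, the tight junction gene Cldn10 by 4.09 ± 0.32, the 12-lipoxygenase gene Alox12 by 3.97 ± 0.19 and the phospholipid transfer protein gene Pltp by 3.95 ± 0.17. Alox12 was at least 12.2-fold and Pltp at least 10.9-fold higher. A further Alox12 probe, dim in both organs, gave a difference of only 0.39. Aldh1a7, an aldehyde dehydrogenase gene, was 9.94, 9.93 and 10.27 in the esophagus and 6.71, 5.86 and 5.91 in the intestine, where only intestine 1 was above background. Its error, which draws on all 28 arrays, was the largest among the 12 (difference 3.89 ± 0.64, adjusted p = 5.17e-05).

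In the intestine direction Serpina1b and Cdx2 led. Serpina1b encodes an alpha-1-antitrypsin, a secreted protease inhibitor. Its level was 12.91, 12.86 and 12.63 in intestine 1 to 3 and 6.43, 6.17 and 7.07 in esophagus 1 to 3, a difference of -6.25 ± 0.26 (adjusted p = 5.62e-15). Serpina1d, a close paralog, was 11.65, 11.54 and 11.70 against 5.99, 5.94 and 6.59, and because the Serpina1 genes of the mouse are nearly identical, their probes may read the same transcripts. Cdx2 was 12.24, 12.13 and 11.99 in the intestine and 5.99, 5.94 and 5.95 in the esophagus, above background on no esophagus array, and so at least 56.8-fold higher in the intestine (difference -6.16 ± 0.30, adjusted p = 8.15e-14). Its mean was 6.51 in the stomach and 10.54 in endoderm at E8.25.

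The remaining leading genes of the intestine were mostly secreted or membrane proteins. Ambp, the precursor of alpha-1-microglobulin and bikunin, was 13.01, 12.89 and 12.52 in the intestine and 6.82, 5.87 and 7.94 in the esophagus. The thyroxine carrier gene Ttr was 12.09, 11.98 and 11.75 against 6.44, 6.18 and 7.99, and the trypsin inhibitor gene Spink1 was 11.11, 11.49 and 12.09 against 6.00, 5.96 and 6.72. On esophagus 3 each of these was higher than on the other esophagus arrays and far below every intestine array. The tetraspanin gene Tspan8 was at least 27.6-fold higher in the intestine (difference -5.03 ± 0.31), with a stomach mean of 11.11 beside an intestine mean of 11.08. The aldo-keto reductase gene Akr1c19 differed by -5.03 ± 0.24 and the onecut transcription factor gene Onecut2 by -4.63 ± 0.37. Scin, which encodes the actin-severing protein scinderin, was at least 17.3-fold higher, and Habp2, a hyaluronan-binding serine protease gene, at least 15.8-fold higher. Habp2 was the more uneven, at 10.64, 10.66 and 9.51 on intestine 1 to 3. Lgals2, the galectin-2 gene, had the smallest error of all 24 leading genes, at 10.28, 10.37 and 10.25 in the intestine and 6.13, 6.13 and 6.11 in the esophagus (difference -4.18 ± 0.09, adjusted p = 1.11e-19, at least 16.1-fold).

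**Figure D2:**
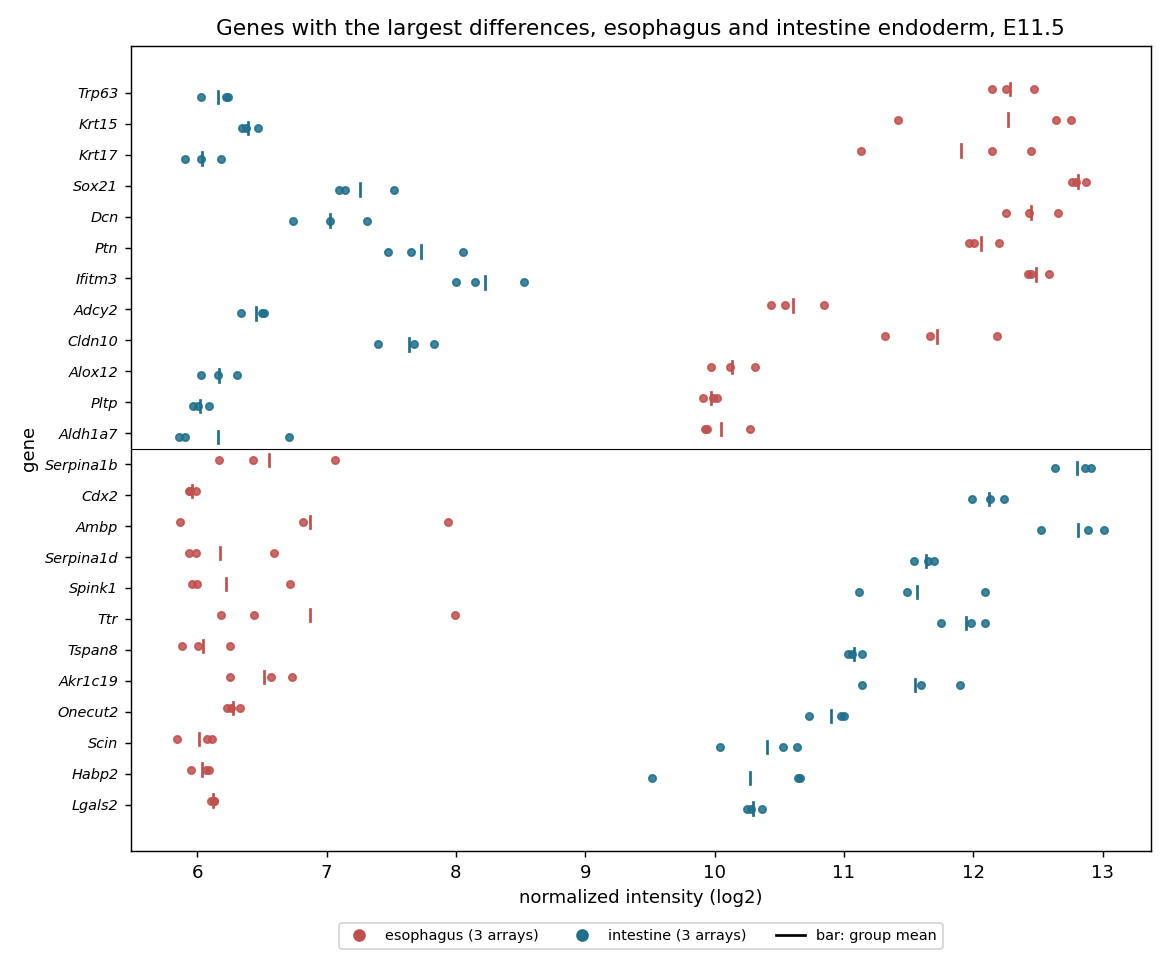
Normalized intensity (log2, x axis) of the 12 genes with the largest differences in each direction, by gene (y axis); points are the 3 arrays of each organ, bars are group means, and the line separates genes higher in the esophagus (top) from those higher in the intestine. No point of either organ reaches the other for any gene, and esophagus 3 is the outlying point for Ambp and Ttr, at 7.94 and 7.99.

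Promoter sequences were looked up for the 24 leading genes, and 17 of them matched a RefSeq window (build GRCm38.p6) of 250 bases before to 50 after an annotated start. The 18 windows of these genes were searched on both strands for 5 short motifs chosen after the values were seen, and 7 genes held the letters TTTATNG, known as a CDX site, or GTTAAT, an arm of the palindrome bound by HNF1 factors. Shown are Cdx2 and Lgals2, intestinal genes at background on all 3 esophagus arrays, Serpina1b, which led the intestine, and Aldh1a7, which was higher in the esophagus and holds both motifs. Letters run 5′ to 3′ on the strand of the gene, capitals mark matches to either motif on either strand, and the windows are chr5:147307200-147307499 (minus) for Cdx2, chr15:78855480-78855779 (minus) for Lgals2, chr12:103738140-103738439 (minus) for Serpina1b and chr19:20727507-20727806 (minus) for Aldh1a7.
Cdx2: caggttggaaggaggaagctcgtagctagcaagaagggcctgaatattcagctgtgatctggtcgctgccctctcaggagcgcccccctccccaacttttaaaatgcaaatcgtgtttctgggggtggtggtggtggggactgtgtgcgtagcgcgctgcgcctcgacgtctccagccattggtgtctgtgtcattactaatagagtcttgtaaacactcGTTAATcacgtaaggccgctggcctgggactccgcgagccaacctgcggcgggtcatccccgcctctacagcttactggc
Lgals2: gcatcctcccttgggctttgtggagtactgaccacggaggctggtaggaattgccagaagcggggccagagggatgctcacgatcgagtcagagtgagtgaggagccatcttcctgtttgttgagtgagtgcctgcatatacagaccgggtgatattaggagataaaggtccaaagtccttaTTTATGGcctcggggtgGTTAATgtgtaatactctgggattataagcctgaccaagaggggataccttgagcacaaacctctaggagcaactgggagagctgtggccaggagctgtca
Serpina1b: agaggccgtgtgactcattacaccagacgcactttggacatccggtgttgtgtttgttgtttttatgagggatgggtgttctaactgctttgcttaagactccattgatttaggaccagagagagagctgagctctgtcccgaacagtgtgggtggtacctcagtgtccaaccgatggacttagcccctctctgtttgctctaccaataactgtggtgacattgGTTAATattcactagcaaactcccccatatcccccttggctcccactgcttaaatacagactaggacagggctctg
Aldh1a7: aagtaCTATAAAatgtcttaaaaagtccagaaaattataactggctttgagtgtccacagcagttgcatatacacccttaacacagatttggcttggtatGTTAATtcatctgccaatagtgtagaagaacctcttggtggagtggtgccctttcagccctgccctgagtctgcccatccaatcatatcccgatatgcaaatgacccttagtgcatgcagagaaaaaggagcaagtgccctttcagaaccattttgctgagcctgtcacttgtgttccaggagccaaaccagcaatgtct

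The HNF1 letters GTTAAT were in 10.2% of the 391 windows of genes called higher in the intestine, 6.33% of the 395 windows of genes called higher in the esophagus, 4.63% of the 10083 windows of genes tested and 7.1% of all 32851 windows. The CDX letters TTTATNG were in 7.16%, 8.86%, 6.94% and 10.9% of the same windows. For the letters of a site of GATA factors (AGATAAG) the shares were 4.09%, 2.28%, 1.92% and 3.04%. The letters ACAATGG, known as a SOX site, were in 3.58%, 1.77%, 2.0% and 3.66%, and the HNF4 letters CAAAGTCCA in 0.767%, 0.506%, 0.377% and 0.475%. Windows of 1 gene can overlap, and none of the 5 motifs contains another. Near-identical gene copies are counted separately, such as Serpina1b and Serpina1d, which both hold GTTAAT. These are shares of letters in short windows and carry no test.

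Transcription factors of the esophagus and anterior foregut were the list with the highest median difference, 3.12 over 11 genes tested against a median of about 0 over all genes. Of these, 7 were called, each higher in the esophagus, against 4.01% of all genes tested. A further 1 with a probe was at background and not tested. Sox2, which specifies the anterior foregut, was 9.08, 9.14 and 9.96 in the esophagus and 5.84, 6.08 and 6.14 in the intestine, at least 7.31-fold higher (difference 3.38 ± 0.26, adjusted p = 2.91e-10). Its stomach mean of 8.55 lay nearer the esophagus. Foxe1, a forkhead factor of the pharynx and thyroid, was 10.34, 9.69 and 9.23 against 5.99, 5.90 and 5.82, at least 9.40-fold higher, and its means in stomach and lung were 6.03 and 5.99, the level of the intestine. The Iroquois factors Irx3 and Irx5 were at least 7.11-fold and 7.95-fold higher, with lung means of 11.90 and 10.78, above the esophagus means of 9.35 and 9.51. Foxq1, a forkhead factor of the stomach lining, was 10.65, 10.80 and 10.26 against 8.96, 8.69 and 9.15, 3.11-fold higher.

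The other 4 of this list were not called. Klf5, a factor used by both stratified and intestinal epithelia, was 11.60, 11.34 and 11.02 in the esophagus and 11.31, 11.43 and 10.84 in the intestine, overlapping values (difference 0.12 ± 0.23, adjusted p = 0.741). Pax9, a factor of pharyngeal and esophageal epithelium, was just above background at 6.58, 6.6 and 6.45 in the esophagus and at 5.96, 5.84 and 5.88 in the intestine, below the fold needed. Isl1 differed by 0.89 ± 0.22 and was called without intestine 3 (1.20) or esophagus 2 (1.10). Eya1 differed by 0.40 ± 0.11.

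Of 25 genes of stratified epithelium tested, 13 were called higher in the esophagus and 1 higher in the intestine, against 4.01% and 4.10% of all genes tested, with a median difference of 1.20. Some of them, such as Krt5 and Anxa8, passed the filter only through the esophagus arrays, which raises this share and median. Beside Krt15 and Krt17, the basal cell keratins Krt5 and Krt14 were low. Krt5 was 7.86, 7.69 and 7.06 in the esophagus and 6.00, 6.08 and 5.86 in the intestine (at least 2.02-fold), and Krt14 was 8.58, 8.72 and 7.54 against 6.35, 5.94 and 6.05 (difference 2.17 ± 0.23). Esophagus 3 was the lowest esophagus array for these 4 keratins. The hemidesmosome genes Col17a1 and Itgb4 anchor basal cells to the basement membrane. Col17a1 was 10.19, 10.21 and 8.96 against 6.10, 6.16 and 5.87, at least 9.60-fold higher, and Itgb4 was 10.86, 10.72 and 10.24 against 7.64, 7.77 and 7.25, 8.29-fold higher. Its partner Itga6 was 8.43, 8.16 and 7.76 against 8.10, 7.26 and 8.06 and overlapped (difference 0.31 ± 0.28, adjusted p = 0.446).

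Genes of epidermal differentiation were part of the same list. Anxa8 and the 14-3-3 sigma gene Sfn were at least 5.43-fold and 4.60-fold higher in the esophagus, Lypd3, a surface protein of upper epidermal layers, at least 3.80-fold and the grainyhead factor gene Grhl3 at least 2.66-fold. Lamb3, a laminin chain of the epidermal basement membrane, was 3.60-fold higher, Jag2, a Notch ligand, at least 1.94-fold and Dapl1 at least 1.69-fold. A further Sfn probe, above background on none of the 6 arrays, gave a difference of 0.14. In the opposite direction Lad1, which encodes the anchoring filament protein ladinin, was 9.40, 9.48 and 9.60 in the intestine and 7.74, 8.0 and 7.66 in the esophagus (difference -1.69 ± 0.14, adjusted p = 1.93e-09). Genes of the mature suprabasal layers, Krt4 and Krt13, and the desmogleins and desmocollins Dsg3 and Dsc3 were among the 8 with a probe that were not above background on all arrays of any group and were not tested.

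Of 16 intestinal transcription factors tested, 8 were called, each higher in the intestine, against 4.10% of all genes tested (median difference -0.99). Isx, an intestine-specific homeobox factor, was 10.29, 9.67 and 9.59 in the intestine and 5.95, 5.85 and 5.84 in the esophagus, at least 11.8-fold higher (difference -3.97 ± 0.13, adjusted p = 2.22e-16), and near background in the stomach, at 5.99. Foxa3, a forkhead factor of the posterior gut and liver, was 10.66, 10.33 and 9.83 against 6.35, 6.37 and 6.58 (difference -3.84 ± 0.21). Gata6 was 10.93, 11.01 and 10.88 against 7.83, 7.48 and 7.44 (10.3-fold), with stomach and lung means of 10.16 and 11.23, both nearer the intestine than the esophagus. Hnf4a, a nuclear receptor of columnar gut epithelium and liver, was 9.56, 9.33 and 8.77 against 6.29, 6.22 and 6.37 (7.60-fold), and its stomach mean of 9.17 was like that of the intestine.

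Gata5 was lower and less certain. It was 7.48, 7.01 and 6.88 in the intestine and 5.92, 5.99 and 5.98 in the esophagus, and without intestine 1 the difference was -0.98, short of the 2-fold limit. Nr5a2, a nuclear receptor of gut and pancreas, was 8.48, 8.36 and 9.60 against 5.89, 5.88 and 5.89 on the probe kept (difference -2.92 ± 0.25), while its other probes gave -1.72 and 0.11. Cdx1, the paralog of Cdx2, was low in both organs, at 6.41, 6.69 and 7.13 and 6.30, 6.34 and 6.38 (difference -0.40 ± 0.38, adjusted p = 0.483), with 8.64 in endoderm at E8.25. Gata4 and Pdx1 differed by -0.82 ± 0.19 and -0.78 ± 0.19 and were not called.

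Brush border and absorption genes, which mark the surface of mature enterocytes, were already unequal. Of 19 tested, 12 were called, each higher in the intestine, against 4.10% of all genes tested (median difference -1.32), and 16 others with a probe were not above background on all arrays of any group. Dpp4, a peptidase of the enterocyte surface, was 10.68, 10.48 and 10.78 in the intestine and 6.96, 7.16 and 6.92 in the esophagus (12.4-fold, adjusted p = 1.15e-14). The microvillus actin bundler villin, Vil1, was 8.57, 9.06 and 8.38 against 5.83, 5.98 and 6.11, at least 5.21-fold higher. The microvillar protocadherin gene Cdhr5 was 9.05, 9.23 and 8.09 against 5.85, 6.03 and 6.12, and the galectin-4 gene Lgals4 was 9.61, 9.76 and 8.57 against 6.67, 6.65 and 6.57. Both were lowest on intestine 3 among the intestine arrays, which remained above every esophagus array.

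Further members were the aminopeptidase gene Anpep, at least 3.56-fold higher in the intestine, the actin bundler gene Espn with a difference of -1.89 ± 0.19, the keratin gene Krt20 with -1.42 ± 0.19, the tetraspanin-like gene Tm4sf4 with at least 2.27-fold, the zinc transporter gene Slc39a5 with at least 1.91-fold and the amnionless gene Amn with at least 2.02-fold. Eps8l2, an actin-regulating gene, lay at the limit (-1.03 ± 0.13) and fell below it without esophagus 3 (-0.98) or without intestine 1 (-0.96). Muc13, a membrane mucin gene, was not called on the probe kept (-0.20 ± 0.09), while its other probe gave -1.91. Absorptive genes of the mature organ, such as Fabp1, Fabp2, Sis and Slc5a1, were among those not tested. The liver mean was above the intestine mean for Anpep (9.22 against 8.12), Krt20 (9.36 against 8.78), Tm4sf4, Slc39a5 and Amn. For the other called members of this list it was below the intestine mean.

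Genes of the secretory and endocrine lineages were tested in small number. Of 4 secretory genes tested, 2 were called higher in the intestine, against 4.10% of all genes. The trefoil factor gene Tff3, a goblet cell product, was 8.80, 8.34 and 7.25 in the intestine and 5.92, 5.94 and 5.86 in the esophagus (at least 3.58-fold), and Clca1, a further goblet cell product, was 8.93, 8.24 and 10.08 against 5.87, 5.83 and 6.10 (at least 6.93-fold). Of 12 endocrine genes tested, 2 were called higher in the intestine. Rfx6, a factor of endocrine progenitors and of early gut endoderm, was 10.24, 9.71 and 10.16 against 6.00, 5.91 and 6.10 (at least 13.4-fold), with stomach and lung means of 9.55 and 8.87. The secretin gene Sct was 10.01, 10.14 and 8.70 against 6.36, 6.46 and 6.42 (difference -3.20 ± 0.38), with its lowest intestine value on intestine 3.

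Secreted plasma protein and lipoprotein genes are best known from liver and yolk sac. Of 19 tested, 8 were called, each higher in the intestine, against 4.10% of all genes tested (median difference -0.62). Beside Serpina1b, Ambp, Ttr and Spink1, these were Apoa1, the main apolipoprotein of high density lipoprotein, at 10.96, 11.04 and 10.68 against 6.69, 6.58 and 7.31 (16.4-fold), the retinol carrier gene Rbp4 (-2.67 ± 0.37), the transferrin gene Trf (-2.55 ± 0.33) and the alpha-fetoprotein gene Afp (-1.74 ± 0.34). Esophagus 3 was the highest esophagus array for all 8 of these. The liver mean was above the intestine mean for each but Spink1 (11.43 in liver, 11.56 in intestine). It was 14.23 against 12.81 for Ambp and 13.55 against 10.90 for Apoa1. Pancreas means of Ambp and Ttr, 13.70 and 13.64, were also above those of the intestine, and their stomach means were 11.87 and 10.57. Those not called ranged from genes above background on every array, such as the apolipoprotein gene Apoc1 (difference 0.12 ± 0.46), to liver genes at background. The probes kept for Ahsg, Apoh and Fga were above background on none of the 6 arrays, and a further Fga probe was on 1. Ahsg was 5.92, 6.02 and 5.72 in the intestine and 5.80, 5.89 and 5.80 in the esophagus, with a liver mean of 10.83, and Fga was 6.10, 6.31 and 6.09 and 6.15, 5.91 and 6.21, with a liver mean of 12.38. Apoa2 was uneven in the esophagus, at 6.69, 5.81 and 7.53 on esophagus 1 to 3, against 5.91, 6.03 and 6.00 in the intestine, and was not called (difference 0.70 ± 0.25). It was called without esophagus 2 (1.13), with no background correction (1.33), with a smaller offset (1.08) and with no minimum on the fold.

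**Figure D3:**
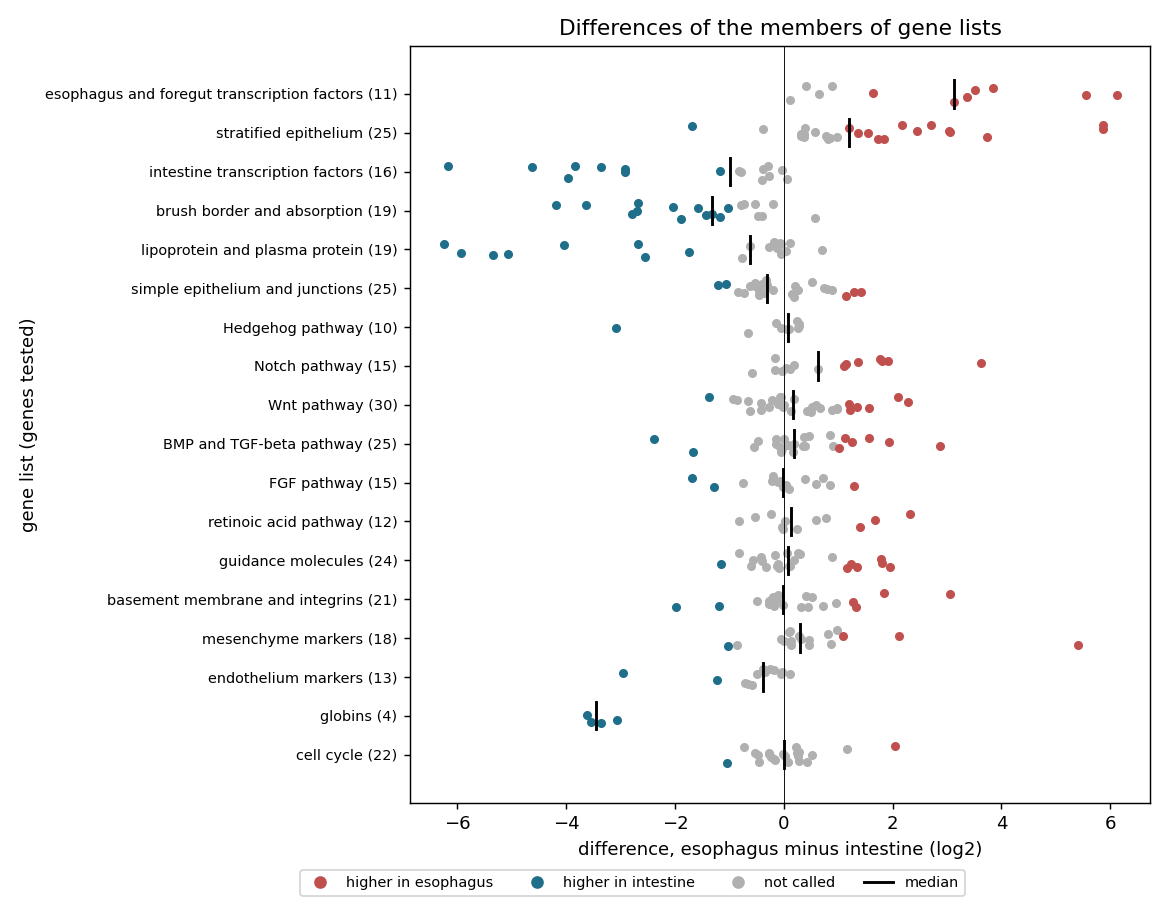
Difference of each gene tested (esophagus minus intestine, log2, x axis) in 18 gene lists (y axis, with the number tested); each point is a gene, colored by its call, and bars mark the list medians. Foregut and stratified genes lie to the right, with medians of 3.12 and 1.20, intestinal factors and brush border genes to the left, with medians of -0.99 and -1.32, and all 4 globins to the left.

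Hox genes encode factors whose expression along the body axis follows their order in the clusters, from low-numbered anterior to high-numbered posterior genes. Of 24 Hox genes tested, those of groups 1 to 4 gave 4 called higher in the esophagus and 2 higher in the intestine of 9, groups 5 to 8 gave 2 and 4 of 8, and groups 9 to 13 gave 1 of 7, higher in the intestine. The median differences of the 3 classes were 0.61, -1.19 and -0.65. Within the Hoxa cluster, Hoxa2 (2.03 ± 0.19), Hoxa4 (1.57 ± 0.15) and Hoxa5 (1.22 ± 0.38, adjusted p = 0.0199) were higher in the esophagus and Hoxa7 (-1.92 ± 0.27) higher in the intestine. Hoxa5 was not called without intestine 3 (adjusted p = 0.0764) or without esophagus 2 (adjusted p = 0.0736). In the Hoxb cluster, Hoxb2 (1.36 ± 0.27) and Hoxb4 (1.42 ± 0.25) were higher in the esophagus and Hoxb5 (-1.57 ± 0.26) and Hoxb7 (-2.77 ± 0.18) higher in the intestine.

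In the Hoxc cluster 1 of 4 genes tested was called. Hoxc6 was 10.10, 10.59 and 10.80 in the esophagus and 7.45, 7.88 and 6.48 in the intestine (difference 3.23 ± 0.43, adjusted p = 2.34e-06), the largest Hox difference in the esophagus direction. Hoxc5 (0.47 ± 0.09), Hoxc9 (-0.63 ± 0.28) and Hoxc10 (-0.41 ± 0.23) were not called. All Hoxd genes called, of low and of high number, were higher in the intestine. Hoxd4 was 9.40, 9.70 and 8.49 there and 5.82, 5.95 and 5.92 in the esophagus (at least 7.49-fold), and Hoxd10 was 8.32, 8.31 and 8.91 against 6.01, 6.21 and 6.02 (at least 4.66-fold). Hoxd3 and Hoxd8 were at least 2.56-fold and 2.54-fold higher in the intestine. None of these 4 Hoxd genes was above background on any esophagus array. Their stomach means were between 5.92 and 6.09, at background.

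**Figure D4:**
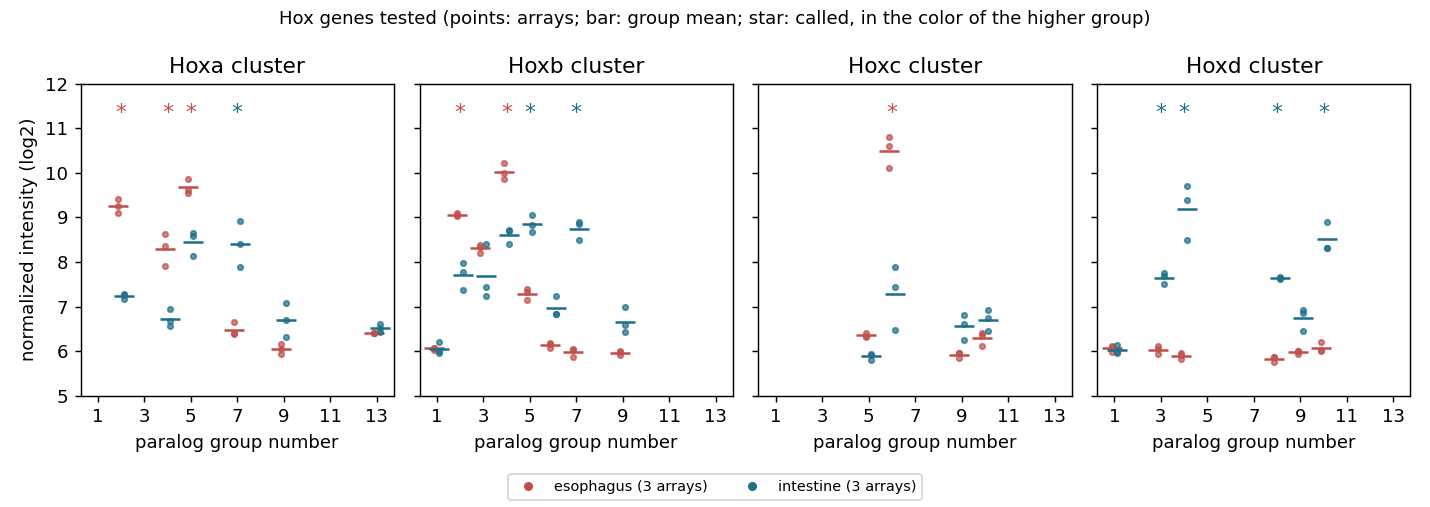
Level (log2 intensity, y axis) of the 24 Hox genes tested, by number of the paralog group (x axis) in 4 panels, 1 per cluster; points are the 3 arrays of each organ, bars are means and stars mark calls in the color of the higher organ. Stars of the esophagus stand at groups 2, 4 and 5 of Hoxa, 2 and 4 of Hoxb and 6 of Hoxc, and every star in the Hoxd panel is the intestine's.

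Genes common to simple epithelia had overlapping sums and some members that differed. The sum of the intensities of 27 of them was 25382 to 29325 in the esophagus and 25847 to 29929 in the intestine. Of 25 tested, 3 were called higher in the esophagus and 2 higher in the intestine (median difference -0.31), and 15 had an unadjusted p under 0.05, as 3607 of all 9651 genes tested did. The E-cadherin gene Cdh1 was 10.72, 10.59 and 10.68 in the esophagus and 10.50, 10.53 and 10.41 in the intestine (difference 0.18 ± 0.25, adjusted p = 0.632), and the keratin gene Krt8 was 12.03, 11.96 and 11.72 against 12.22, 12.03 and 12.40. Its partner keratin Krt18 was 10.92, 10.83 and 10.75 in the intestine and 9.76, 9.93 and 9.61 in the esophagus, a difference of -1.07 ± 0.26 that fell just short of 2-fold without esophagus 3 (-0.99). The epithelial factors Grhl1, Grhl2 and Ovol2 were higher in the esophagus (1.29 ± 0.12, 1.14 ± 0.28 and 1.42 ± 0.12), and the protease inhibitor gene Spint1 was higher in the intestine (-1.22 ± 0.24). Grhl2 was not called without intestine 2, nor Spint1 without intestine 3, where their differences were 0.91 and -1.0. The epithelial markers Cdh1, Krt8, Krt18 and Cldn6 were above background on all 6 arrays. Epcam was not analysed here.

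The Foxa genes, factors that open chromatin in endoderm, differed in direction. Foxa2 was 9.07, 9.27 and 9.35 in the esophagus and 7.08, 7.26 and 7.53 in the intestine (3.83-fold, adjusted p = 2.7e-08), opposite to Foxa3. Foxa1 was 11.30, 10.68 and 10.58 against 11.75, 11.54 and 12.24 and not called (difference -0.99 ± 0.39, adjusted p = 0.0632), although its values did not overlap. It was called without esophagus 1 (-1.21) and when the 6 arrays alone were normalized and fitted (-1.01). Sox5 was higher in the esophagus (1.18 ± 0.17). Hhex, a homeobox factor of early endoderm and liver, was at least 2.87-fold higher in the intestine.

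Among the 6 signalling pathways, Notch had the largest share of calls. Of 15 genes tested, 7 were called, each higher in the esophagus (median difference 0.62). They included the ligand gene Jag1, at 7.88, 7.83 and 7.85 in the esophagus and 6.14, 6.05 and 5.93 in the intestine (at least 2.51-fold), and the receptor gene Notch1, at 9.25, 9.38 and 8.84 against 7.46, 7.31 and 6.96 (3.76-fold, adjusted p = 7.79e-06). Of its target genes, 3 were called. Nrarp, a feedback inhibitor, was 10.01, 10.45 and 10.09 against 6.58, 6.68 and 6.39 (12.4-fold, adjusted p = 4.98e-14), Hey1 differed by 1.77 ± 0.15 and Hes1 by 1.14 ± 0.16. The targets Hes5 (-0.15 ± 0.28) and Hey2 (0.11 ± 0.10) were above background on none of the 6 arrays, and the related gene Hes6 was not called (0.62 ± 0.16). Mfng, a glycosyltransferase that modifies Notch, differed by 1.11 ± 0.20 and was not called without esophagus 3 (0.85). With Jag2, described above, these are the 7.

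Of 12 retinoic acid genes tested, 3 were called, each higher in the esophagus. The synthesis enzyme gene Aldh1a1 was 8.35, 8.45 and 8.33 in the esophagus and 6.03, 6.11 and 6.04 in the intestine (at least 3.62-fold). The receptor gene Rarb was 9.90, 9.88 and 10.06 against 8.04, 7.5 and 9.27 (1.68 ± 0.31), with intestine 3 the highest intestine array, and its other probes gave 0.42 and 0.66. The receptor gene Rarg was 8.08, 8.02 and 7.60 against 6.48, 6.57 and 6.45 (1.4 ± 0.11), and its other probes gave 0.77 and -0.39.

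Of 30 Wnt pathway genes tested, 6 were called higher in the esophagus and 1 higher in the intestine. The ligand gene Wnt4 was 8.65, 8.48 and 8.10 in the esophagus and 6.20, 6.02 and 6.17 in the intestine (at least 3.70-fold), and Wnt7b, at least 2.21-fold higher, had a lung mean of 12.11 beside an esophagus mean of 7.66. Wnt6 was at least 1.51-fold higher and was not called without esophagus 1 (0.89). Wnt5a was higher in the intestine, at 8.91, 8.59 and 9.14 against 8.04, 7.41 and 7.05 (-1.38 ± 0.21). The Wnt-deacylating enzyme gene Notum was 7.69, 7.57 and 8.69 in the esophagus and 5.80, 5.91 and 5.94 in the intestine (at least 2.75-fold), the receptor gene Fzd1 differed by 1.35 ± 0.35 and the secreted inhibitor gene Sfrp2 by 1.21 ± 0.29, the last not called without intestine 3 (0.98). The general Wnt target Axin2 differed by 0.20 ± 0.14 (adjusted p = 0.305).

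Of 25 BMP and TGF-beta genes tested, 6 were called higher in the esophagus and 2 higher in the intestine. Inhbb, an activin subunit, was 8.72, 8.82 and 9.19 in the esophagus and 6.21, 6.02 and 5.88 in the intestine (at least 5.23-fold, adjusted p = 1.14e-14). Sostdc1, an inhibitor of BMP and Wnt signals, differed by 1.93 ± 0.20, and the ligand genes Bmp7 and Bmp4 by 1.12 ± 0.15 and 1.03 ± 0.21. Bmp4 was not called without esophagus 1, esophagus 2 or intestine 1 (0.95, 0.99 and 0.86). The Id genes, targets of BMP signals, went both ways. Id2 was 11.23, 11.12 and 11.36 in the intestine and 9.21, 8.75 and 8.59 in the esophagus (5.24-fold higher in the intestine), whereas Id3 and Id4 were higher in the esophagus (1.25 ± 0.18 and 1.56 ± 0.21). The ligand gene Tgfb2 was higher in the intestine (-1.66 ± 0.26).

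Of 15 FGF genes tested, 2 were called higher in the intestine, the FGF target factors Etv4 (-1.69 ± 0.34) and Etv5 (-1.28 ± 0.20), and 1 higher in the esophagus, the inhibitor gene Spred1 (1.29 ± 0.20). Of 10 Hedgehog genes tested, 1 was called. The ligand gene Ihh was 8.78, 8.75 and 10.14 in the intestine and 6.14, 6.08 and 6.18 in the esophagus, at least 7.63-fold higher (adjusted p = 1.67e-07), with a stomach mean of 9.14. The ligand gene Shh was 12.47, 12.51 and 13.07 against 11.95, 11.95 and 12.20 (difference -0.65 ± 0.20, adjusted p = 0.0165), under 2-fold. The Hedgehog targets Ptch1 and Hhip differed by 0.06 ± 0.09 and 0.29 ± 0.12 and were not called. Both were near background, with means of 6.37 and 6.49 in the esophagus and 6.31 and 6.20 in the intestine. Each was above background on 3 esophagus arrays and on 1 intestine array.

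Basement membrane and integrin genes gave 4 called higher in the esophagus and 2 higher in the intestine of 21 tested. Itga3, an epithelial laminin receptor, was 10.12, 9.89 and 9.78 against 8.58, 8.53 and 8.67 (2.53-fold higher in the esophagus), and the collagen IV chain gene Col4a5 differed by 1.27 ± 0.16. Lama1, a laminin chain of embryonic basement membranes, was 8.69, 8.59 and 8.24 in the intestine and 6.59, 6.39 and 6.61 in the esophagus (-1.98 ± 0.22), and Itgb6 was higher in the intestine as well (-1.19 ± 0.22). Of 24 guidance genes tested, 6 were called higher in the esophagus and 1 higher in the intestine. The receptor gene Robo1 was 10.92, 10.79 and 10.79 against 8.71, 8.72 and 9.23 (3.86-fold), and its ligand gene Slit2 differed by 1.16 ± 0.18. The repulsive ligand genes Sema3a and Sema3f differed by 1.80 ± 0.20 and 1.35 ± 0.28, while Nrp1, a receptor for Sema3a, was higher in the intestine (-1.15 ± 0.18), a call lost without esophagus 3 (-0.96). Nrp2, a receptor for Sema3f, differed by -0.08 ± 0.11 (adjusted p = 0.637). It was near background, with means of 6.41 in the esophagus and 6.49 in the intestine. The ephrin gene Efna5 differed by 1.79 ± 0.20. Efnb2 differed by 1.24 ± 0.42 (adjusted p = 0.029) and lost its call in 5 of the 6 fits leaving out 1 array, with adjusted p from 0.0501 to 0.106 in those 5. When the probes of a symbol were averaged in place of keeping the brightest, the differences of 15 genes named here fell under 2-fold, namely Espn, Eps8l2, Slc39a5, Tm4sf4, Grhl1, Sox5, Wnt5a, Wnt7b, Rarb, Rarg, Mfng, Nkx2-1, Cdkn1a, Itgb6 and Sema3f.

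Genes of detoxification split. The glutathione peroxidase gene Gpx2 was 10.32, 10.85 and 9.35 in the esophagus and 7.37, 7.38 and 7.36 in the intestine (6.97-fold), and the carbonyl reductase gene Cbr2 at least 3.73-fold higher in the esophagus. The glutathione transferase genes Gstm1 and Gsto1 and the cytochrome P450 gene Cyp2s1 were higher in the intestine (-1.90 ± 0.17, -1.71 ± 0.14 and -1.55 ± 0.15), which made 2 and 3 calls of 16 tested. Of 12 imprinted growth genes tested, Nnat was higher in the esophagus (2.05 ± 0.38) and Peg3, Igf2r and Dlk1 were higher in the intestine (-2.27 ± 0.41, -1.38 ± 0.15 and -1.26 ± 0.27).

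Of 22 proliferation genes tested, 2 were called, a share near the 8.11% of all genes tested. The cyclin gene Ccnd2 was higher in the esophagus, at 13.34, 13.38 and 13.05 against 10.88, 10.71 and 12.05 (2.04 ± 0.36), and the cyclin-dependent kinase inhibitor gene Cdkn1a higher in the intestine (-1.04 ± 0.23), a call lost without esophagus 1 (-0.99) or intestine 1 (-0.95). The replication gene Pcna was 8.75, 9.15 and 8.96 in the esophagus and 7.75, 7.70 and 7.91 in the intestine, values that did not overlap, and was not called (difference 1.17 ± 0.55, adjusted p = 0.127), though it was in a fit of the 6 arrays alone (adjusted p = 0.000547). The median of the list was 0.01. Of 14 immediate early genes tested, which respond to handling of cells, 0 were called by limma and 2 had an unadjusted p under 0.05. Egr1, a member of that list, was called without intestine 3 (-2.05, adjusted p = 0.0336).

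A few markers of other organs were called. Of 8 lung and trachea markers tested, Nkx2-1, the lung and thyroid factor, was called higher in the esophagus, at 7.35, 7.0 and 6.97 against 5.88, 6.06 and 6.00 (at least 1.5-fold), with a lung mean of 12.00. Of 7 pancreas markers tested, the homeobox gene Mnx1 was called higher in the esophagus (1.12 ± 0.12), a call lost without esophagus 3 (0.95). Of 4 stomach markers tested, Foxq1, described above, was called higher in the esophagus and the trefoil factor gene Tff1 higher in the intestine, at 8.73, 8.24 and 7.38 against 6.22, 6.25 and 6.17 (at least 3.55-fold). The stomach mean of Foxq1, 8.38, was below its means in the esophagus (10.57) and the intestine (8.93). Of 3 pharynx, thymus and thyroid markers tested, 0 were called by limma, and 1 had an unadjusted p under 0.05.

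Markers of cells other than endoderm moved with the organs in part. Of 18 mesenchyme markers tested, Dcn, Acta2 and Twist1 were called higher in the esophagus and Vim higher in the intestine (median difference 0.30). By their means, 15 of the 18 were higher in the esophagus. In the limma fit 10 had an unadjusted p under 0.05, as 3607 of all 9651 genes tested did. Acta2 was 11.84, 11.60 and 10.02 in the esophagus and 8.73, 9.89 and 8.46 in the intestine (difference 2.13 ± 0.43, adjusted p = 0.000462), with esophagus 3 the lowest of the esophagus arrays and close to intestine 2. The smooth muscle gene Actg2 was 9.62, 9.54 and 7.95 against 7.05, 8.01 and 6.67 (1.79 ± 0.36), and esophagus 3 was below intestine 2. Twist1 differed by 1.08 ± 0.13 and lost its call without esophagus 2 (1.0). Vim differed by -1.03 ± 0.26 and lost its call without esophagus 1, esophagus 2, intestine 2 or intestine 3 (-0.99, -0.93, -0.96 and -0.98). The defining collagen genes Col1a1 and Col3a1 were low in both, at 7.75, 7.60 and 6.76 against 6.21, 6.54 and 6.43 and 7.85, 7.65 and 6.92 against 6.68, 6.90 and 6.41, and Pdgfra overlapped (8.90, 8.23 and 7.90 against 7.77, 8.17 and 7.69). None of these 3 was called, though without esophagus 3 Col1a1 and Col3a1 were (1.28 and 1.08), and Col1a1 also without intestine 2 (1.05). With no background correction both were called as well (1.58 and 1.21), and Col1a1 with array weights (1.17) and under both other background settings. The part of mesenchyme in the results for Dcn, Acta2 and Actg2 was not tested.

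Of 13 endothelium markers tested, 2 were called higher in the intestine. Ramp2, a receptor component found in endothelium, was 10.19, 10.15 and 8.57 there and 6.78, 6.79 and 6.46 in the esophagus, with a stomach mean of 10.93, and the adhesion gene Esam was 7.75, 8.09 and 6.99 against 6.27, 6.40 and 6.47, a call lost without intestine 2 (-0.99). The summed intensity of 15 endothelium markers was 1710 to 3373 in the intestine, lowest on intestine 3, and 1327 to 1376 in the esophagus. Ramp2 is part of this sum, and no sum without it was made. The numbers of the 15 above background were 7, 8 and 3 on intestine 1 to 3 and 2, 3 and 4 on esophagus 1 to 3. The defining markers Pecam1 and Tek were above background on none of the 6 arrays, and Cdh5 and Kdr were not tested. Of 8 leukocyte and 7 neural crest markers tested, 0 were called by limma, and 0 and 1 had an unadjusted p under 0.05, with summed intensities of 734 to 1115 and 832 to 1020 in the esophagus and of 750 to 848 and 880 to 991 in the intestine.

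Globins, the transcripts of red blood cells, were higher in the intestine on every array. The embryonic beta-type gene Hbb-y was 11.63, 12.02 and 12.85 in the intestine and 9.20, 7.93 and 8.52 in the esophagus (difference -3.62 ± 0.82, adjusted p = 0.00152), and Hbb-bh1 was 9.15, 9.16 and 10.33 against 6.61, 6.27 and 6.56 (-3.07 ± 0.44). The embryonic alpha-type gene Hba-x was 9.54, 9.71 and 10.97 against 6.79, 6.40 and 6.39 (-3.54 ± 0.62), and Hba-a1, whose probe may also read its near-identical copy Hba-a2, was 11.17, 11.51 and 12.28 against 8.72, 7.59 and 8.57 (-3.36 ± 0.84). Intestine 3 was the highest array for all 4. The summed globin intensity was 656 to 1292 in the esophagus and 6868, 8543 and 15720 on intestine 1 to 3. Of 7 other erythroid markers tested, 0 were called by limma and 2 had an unadjusted p under 0.05. Of these the anion exchanger gene Slc4a1 was 7.73, 7.65 and 7.73 against 6.38, 6.25 and 6.49 without overlap (-1.33 ± 0.60, adjusted p = 0.107), and it was called in a fit of the 6 arrays alone (adjusted p = 9.55e-05). Alas2, the heme synthesis enzyme of red cells, was 6.54, 6.30 and 6.99 against 6.09, 6.04 and 6.07. The part of red blood cells in other results was not tested.

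**Figure D5:**
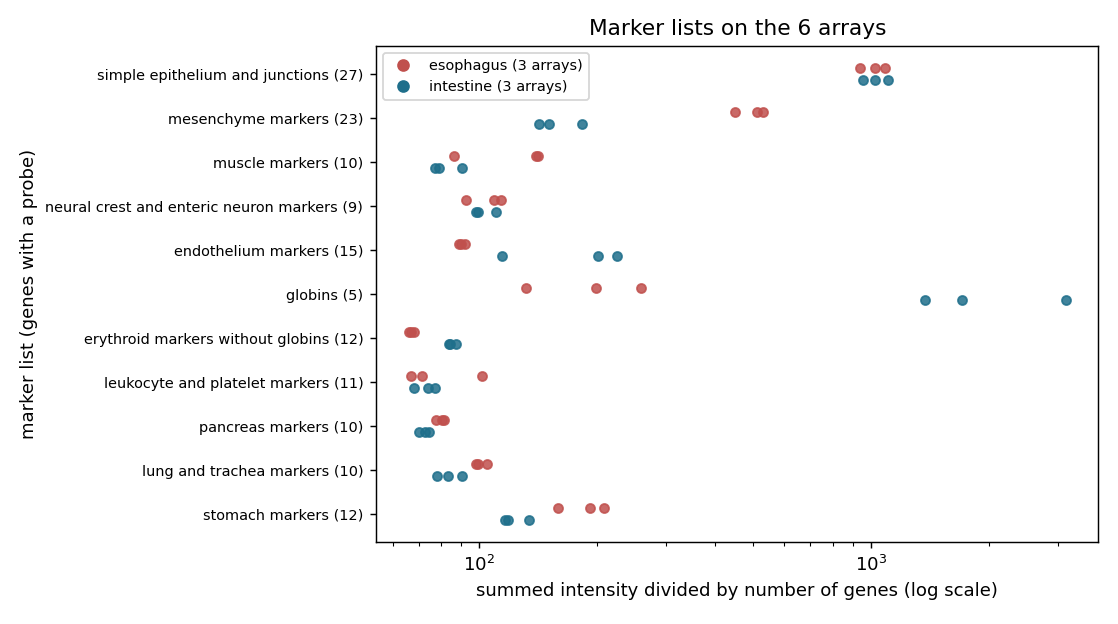
Summed intensity of marker lists divided by the number of genes with a probe (x axis, log scale) for each list (y axis); points are the 3 arrays of each organ. Simple epithelium markers overlap between the organs, and globins are higher in the intestine, with the highest point on intestine 3. The mesenchyme sum is higher in the esophagus, but without Dcn and Acta2 the sums of the organs overlap. More of the other 21 were above background on each esophagus array (12 to 14) than on any intestine array (4 to 9).

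The genes called were set beside the stomach, which lies between these organs in the gut tube, and beside endoderm at E8.25. Of the 387 genes higher in the esophagus, the stomach mean lay between the means of the organs for 290, and it was nearer the esophagus for 74. Of the 396 higher in the intestine, it lay between for 293 and was nearer the intestine for 157. Endoderm at E8.25 was nearer the intestine for 289 of the genes higher in the esophagus and nearer the esophagus for 249 of those higher in the intestine. Of the 6 organs, the esophagus had the highest mean for 321 of its 387 genes (82.9%), and the intestine for 204 of its 396 (51.5%). For the rest of the 396 the highest organ was the liver for 98, the pancreas for 52, the stomach for 25 and the lung for 17. These are descriptions of the means and were not tested. The genes were selected by the difference between esophagus and intestine. That selection itself favours the higher organ as the highest of the 6 and other means lying between. The same counts over all genes tested were not made.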

How the data were processed

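The series holds 28 bead arrays in 9 groups, grouped by sample title, with 3 arrays each of esophagus and intestine endoderm. Intensities of 25697 probes per array, as deposited, were the starting values. The submitters' processing notes name BeadStudio without version or role, and no source used here says how the authors scaled or background-corrected these intensities. Their range shows them to be linear and not centred, with some below 0. A second deposited table of 112 data columns was not used, since its array identifiers could not be assigned to samples. Written plans that needed its detection p-values were replaced by sensory receptor probes (1362).

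Background was corrected with normexp without controls (offset 50), followed by quantile normalization over the 28 arrays and log2. Of the probes, 23978 carried 1 symbol, 0 several and 1719 none, by the platform's annotation, and 23962 were matched by gene identifier with 0 symbols changed. The brightest probe stood for each of 16593 symbols, which favours bright probes over others of the same gene. A gene was tested when its probe exceeded the 99th percentile of receptor probes on every array of at least 1 group, so a gene low in 1 organ could pass through any other group. A gene could also pass only through the compared organ where it is high. The 9651 genes passing entered a limma fit (limma 3.58.1, R 4.3.3) with the 9 group means and no covariates, and the Benjamini-Hochberg adjustment ran over all of them. The script was tested on simulated data.

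Named genes are the 12 with the largest difference in each direction that were called in all 6 fits leaving out 1 array, the globins, members of 35 lists and outliers. The comparison, the lists and their members were chosen with earlier results of these data known, and the promoter motifs and the gene families of the closing section after the values were seen. Alternatives changed background, scaling, arrays in the fit, filter, probe choice, weights, fold limit, replicate block and arrays left out.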

Additional observations from a re-analysis of the deposited data

How the results depend on the processing

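The number of genes called was 749 to 870 when each array was left out in turn, 362 to 428 higher in the esophagus and 387 to 442 higher in the intestine, and 619 genes were called in the main analysis and in all 6 of these. Without background correction 1323 were called, 685 and 638 by direction, and without a minimum fold change 2581, or 1295 and 1286, since that setting adds genes under 2-fold. The other settings gave 647 (mean of the probes of a symbol) to 1145 (offset 16), and 0 genes were called in the opposite direction under any setting. Array weights gave 909, in a fit whose tolerance was not reached. Deviations from the organ means had r = 0.075, 0.032 and 0.054 between arrays of equal replicate number and -0.099 to 0.060 for unequal numbers. With 3 arrays per organ these values cannot decide whether the replicate numbers pair the arrays. The fit with the replicate number as a block called 778, 383 and 395 by direction. Of 3718 values of 197 genes followed, 3613 kept their side of the thresholds, 54 lost a call and 51 gained one, and 0 changed direction while called. Gains without background correction or with the offset of 16 were dim genes such as Pax9, Gata4, Pdx1, Hoxb6 and Hoxd9. Scaling to the 75th percentile lost the calls of Eps8l2, Krt18 and Cdkn1a, array weights those of Mfng, Mnx1 and Nrp1, and a fit of the E11.5 arrays or no filter on dim probes that of Efnb2. Near background, differences are compressed, and the signal over background limits them to bounds. The causes of the lost calls were not tested.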

Other observations

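Some gene families outside the lists, chosen after their values were seen, add to the description and carry no test of their own. Of 5 uroplakin genes tested, which encode membrane plaque proteins of the bladder lining, Upk1b and Upk2 were called higher in the esophagus, and Upk1a and Upk3b higher in the intestine. Upk1b was 10.97, 9.37 and 9.68 in the esophagus and 6.47, 6.49 and 6.17 in the intestine, and Upk2 was 9.20, 9.50 and 8.90 against 6.06, 5.99 and 5.89. Upk1a ran the other way, at 8.22, 8.30 and 8.64 in the intestine and 6.33, 6.25 and 6.35 in the esophagus. A further Upk1b probe, above background on none of the 6 arrays, gave a difference of 0.13. Of 9 annexin genes tested, Anxa1, Anxa2 and Anxa8 were called, each higher in the esophagus. Anxa1 was at least 8.77-fold higher and Anxa2, a membrane-binding protein gene bright in both organs, was 13.68, 13.56 and 13.17 against 10.47, 10.77 and 10.53 (7.36-fold).

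Transcription factors known from skin and lung were unequal as well. Nfix and Nfib, of the nuclear factor I family, were higher in the esophagus, at least 10.4-fold and 4.50-fold, as 2 of 3 tested. A further Nfix probe, dim in both organs, gave a difference of 0.54. The AP-2 factors Tfap2a and Tfap2c, which act in epidermis, were at least 2.05-fold and 6.84-fold higher in the esophagus, with E8.25 endoderm means of 9.50 and 10.07, above both organs. In the other direction Sall4, a zinc finger factor of stem cells, was 11.11, 11.11 and 11.19 in the intestine and 7.17, 6.75 and 7.17 in the esophagus (difference -4.11 ± 0.21, adjusted p = 1.25e-13). Its means were 9.88 in stomach, 10.09 in lung, 10.84 in liver and 10.31 in pancreas. The esophagus was thus the lowest of the 6 organs on the probe kept. The other Sall4 probes gave differences of -2.21 and -0.03, the second above background on none of the 6 arrays. When the probes of a symbol were averaged, Upk3b and Tfap2a differed by less than 2-fold.

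Of 21 collagen genes tested, 7 were called, each higher in the esophagus. They included Col7a1, the anchoring fibril collagen of stratified epithelia, at 9.15, 9.21 and 8.15 against 6.83, 6.95 and 6.39, and the cartilage collagen Col2a1 at 10.25, 10.38 and 10.76 against 6.86, 7.21 and 7.24, with lung and pancreas means of 10.12 and 9.75. Of 17 serpin genes tested, 7 were called, each higher in the intestine, among them nearly identical Serpina1 copies. Of 191 solute carrier genes tested, 5 were called higher in the esophagus and 12 higher in the intestine, together a share near the 8.11% of all genes tested. Of 60 cytosolic ribosomal protein genes tested, 0 were called by limma, and 10 had an unadjusted p under 0.05.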
